A study of Homo sapiens with 4 samples.

Results

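The AP-1 transcription factor genes FOS, FOSB, FOSL1, FOSL2, JUN, JUNB and JUND were described together with ATF3, MAFF and MAFK in A549 cells with and without doxycycline-induced GATA4. The genes were chosen by symbol, and all 10 were found among the 23143 symbols of the deposited table. A549 is a human lung adenocarcinoma line. Polyadenylated RNA was sequenced from 4 libraries, 2 labelled noDOX (normal GATA4 level) and 2 labelled DOX (overexpressed GATA4). The design text calls the cells A549i and gives the untreated arm as vehicle. The sources used here give no dose, duration or construct and do not say whether the line is 1 clone, and no library of doxycycline-treated cells without the inducible GATA4 was analysed here. The series title links the study to inhibition of the type I TGF-β receptor in lung cancers that lack GATA4, so the comparison asks how transcripts differ when GATA4 is raised. Values are FPKM, fragment numbers corrected for transcript length and library size, which allow levels of genes of different length to be set side by side.

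AP-1 is a family of dimers of basic leucine zipper (bZIP) proteins. A JUN protein pairs with another JUN or, more stably, with a FOS protein, and the pair binds the DNA element TGANTCA. ATF3 pairs with JUN proteins and also binds the related cAMP response element, TGACGTCA. MAFF and MAFK are small MAF proteins, bZIP factors without an activation domain that serve as partners of NRF2-type and BACH factors. Many of these genes are immediate early genes, which growth factors, stress and TGF-β switch on within minutes, and FOSL1 and JUN are known for their part in RAS-driven lung epithelial growth.

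Several of these genes carry AP-1 or cAMP response elements in their own promoters. Short stretches are printed to show which elements stand next to the starts of genes with lower, higher or overlapping DOX values below. Of the 10 genes, 8 had a RefSeq promoter window (GRCh38.p14, 250 bases before to 50 bases after a start), with 10 windows in all because ATF3 and MAFF have 2 each, and FOSL1 and MAFK had none. Both strands were searched for the AP-1 element TGANTCA, for the cAMP response element TGACGTCA and for its variant TGACATCA. A search for TGACG, which is the start of the cAMP response element, overlaps with it. The GATA motif was searched as GATA preceded by A or T and followed by A or G. Matches are in capitals, the gene's own strand is shown 5′ to 3′, and the genome build is GRCh38.p14, later than the hg19 build of the FPKM. Of ATF3 and MAFF the upstream start is shown.
JUNB, chr19:12791321-12791380, plus strand: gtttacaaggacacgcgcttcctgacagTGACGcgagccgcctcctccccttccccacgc
JUN, chr1:58784068-58784127, minus strand: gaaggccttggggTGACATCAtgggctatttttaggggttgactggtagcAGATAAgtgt
JUND, chr19:18281778-18281837, minus strand: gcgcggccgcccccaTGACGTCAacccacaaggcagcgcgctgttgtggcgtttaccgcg
FOS, chr14:75278738-75278797, plus strand: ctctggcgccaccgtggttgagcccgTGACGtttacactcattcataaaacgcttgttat
ATF3, chr1:212565257-212565316, plus strand: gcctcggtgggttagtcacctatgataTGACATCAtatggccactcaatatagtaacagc
MAFF, chr22:38201914-38201973, plus strand: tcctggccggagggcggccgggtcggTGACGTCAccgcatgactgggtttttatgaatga
FOSL2, chr2:28392850-28392879, plus strand: gtgccattgtagTGACTCAtctcgggcaga

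The element TGACATCA lay 67 bases before the JUN start and 123 bases before the ATF3 start, and 2.61% of all 35116 windows held it. The palindrome TGACGTCA lay 200 bases before the JUND start and 54 bases before the MAFF start (1.85% of windows). TGANTCA was found in the FOSL2 window only, 5 bases into the transcript (7.71% of windows). TGACG was in 7 of the 10 windows, at 137 bases before the JUNB start and 64 bases before the FOS start among others. It was in 24.6% of all windows, which were not matched to these 10 for base content. The GATA motif was in 1 of the 10 windows, that of JUN, 30 bases before its start, against 25.0% of all windows. Of the pair with TGACGTCA, JUND had lower and MAFF higher DOX values. A match describes the letters in the window and not a bound site.

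The libraries bore out their labels for GATA4, at 12.2 and 14.5 FPKM in noDOX libraries 1 and 2 and 75.0 and 48.0 FPKM in DOX libraries 1 and 2. All 8 epithelial marker genes averaged at least 1 FPKM, with summed levels of 5590 to 7820 FPKM in noDOX and 5030 to 9640 FPKM in DOX libraries. The 7 blood markers summed to 9.72 to 10.2 and 6.06 to 17.6 FPKM, mostly CD14 and LYZ, with CD3E listed at 0. The 6 fibroblast markers summed to 3.93 to 9.63 and 2.06 to 2.96 FPKM, with DCN listed at 0, and the 5 endothelial markers summed to at most 0.192 FPKM. Their part in the results was not tested. Sums of FPKM were 975728 to 1381822, and the files give no read depth, so counting error cannot be stated. In bulk RNA, fewer cells expressing a gene and less RNA per cell cannot be told apart.

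No AP-1 gene passed the test, but JUN, JUNB, JUND, FOSL1, ATF3 and MAFK had lower values in both DOX libraries than in both noDOX libraries, and MAFF had higher ones. Of the 10 genes, 9 averaged at least 1 FPKM over the 4 libraries and were tested on log2(FPKM + 1) with limma, and FOSB was below that level. By limma 0 of the 9 passed an adjusted p of 0.05, against 0.0880% of the 12504 genes tested (11 genes, of which 10 were small RNA genes). Without overlap between the groups, 6 of the 9 were lower with doxycycline and 1 was higher, where 17.3% of tested genes were lower and 14.7% higher without overlap. At an unadjusted limma p under 0.05 stood 4 lower genes and 1 higher gene, against 3.52% and 2.82% of all genes tested. The median log2 difference of the 9 was -0.70, against -0.04 over all tested genes. The labels do not say whether the libraries came from separate cultures, so p-values measure only the spread among these 4 libraries, possibly technical.

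**Figure D1:**
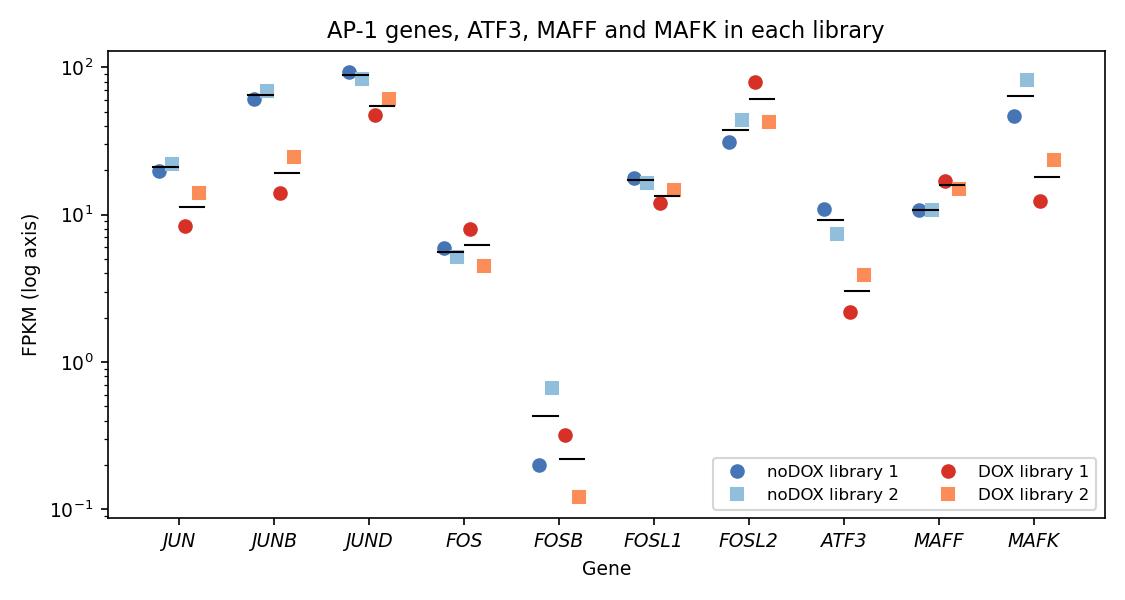
FPKM on a log axis of each of the 10 genes in the 4 libraries (blue circle and square, noDOX libraries 1 and 2; red circle and orange square, DOX libraries 1 and 2), with a black line at each group mean. The DOX points of JUN, JUNB, JUND, FOSL1, ATF3 and MAFK lie below both noDOX points, those of MAFF lie above, and those of FOS, FOSB and FOSL2 overlap.

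JUNB, a JUN protein that often restrains JUN activity and is itself a TGF-β response gene, was at 60.5 and 68.9 FPKM in noDOX libraries 1 and 2 and at 14.0 and 24.5 FPKM in DOX libraries 1 and 2. The lowest noDOX value lay 36.0 FPKM above the highest DOX value. Group means were 64.7 ± 5.96 and 19.2 ± 7.42 FPKM (SD, n = 2 each), so the DOX mean was 29.7% of the noDOX mean. The log2(FPKM + 1) values differed by -1.75 (SE 0.33), and 1.32% of tested genes had a lower difference. JUNB did not pass (limma, unadjusted p = 0.00448, adjusted p = 0.455). JUNB shares 259 exon bases, 14.2% of its exon bases in GENCODE release 29, with HOOK2 on the opposite strand. HOOK2 was at 8.50 and 10.1 FPKM in noDOX and 5.60 and 5.86 FPKM in DOX libraries. No source used here gives the strand setting of the quantification, so reads of the shared stretch could have been counted for either gene.

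JUN, which encodes c-Jun, the transactivating partner of most AP-1 dimers, was at 19.8 and 22.1 FPKM in noDOX and 8.41 and 14.1 FPKM in DOX libraries. Both DOX values lay below both noDOX values. Group averages were 20.9 ± 1.67 and 11.3 ± 4.05 FPKM (SD, n = 2 each), with a log2 difference of -0.88 (SE 0.29; limma, adjusted p = 0.728). JUND, the JUN gene known for steady expression in resting cells, was at 92.9 and 83.0 FPKM in noDOX and 47.3 and 61.3 FPKM in DOX libraries. Again the groups did not overlap. Group averages were 88.0 ± 7.02 and 54.3 ± 9.92 FPKM (SD, n = 2 each), with a log2 difference of -0.70 (SE 0.27; limma, adjusted p = 0.806).

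Summed over JUN, JUNB and JUND, the FPKM were 173 and 174 in noDOX libraries and 69.7 and 99.9 in DOX libraries, so the DOX mean was 48.8% of the noDOX mean. The make-up of that sum also differed. JUNB held 34.9 and 39.6% of it in noDOX and 20.1 and 24.5% in DOX libraries, and JUND held 53.7 and 47.7% against 67.9 and 61.4%. The share of JUN overlapped, at 11.4 and 12.7% against 12.1 and 14.2%. JUNB stood at 3.06 and 3.12 times JUN in noDOX libraries and at 1.66 and 1.73 times JUN in DOX libraries. Such ratios within a library do not depend on the scaling between libraries. The smallest two-sided p that an exact permutation of 2 against 2 libraries allows is 0.333, so these shares are given without a test.

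Of the FOS genes, FOSL1 was lower in both DOX libraries like the JUN genes, while FOS, FOSB and FOSL2 overlapped between the groups. FOS, which encodes c-Fos, was at 5.98 and 5.13 FPKM in noDOX and 8.05 and 4.47 FPKM in DOX libraries, so the DOX libraries lay on both sides of the noDOX ones. The log2 difference of FOS was 0.11 (SE 0.30; limma, adjusted p = 0.999), and without DOX library 1 it turned to -0.26. FOSB, an activity-induced gene, stayed under 1 FPKM in all 4 libraries, at 0.20 and 0.662 in noDOX and 0.318 and 0.122 in DOX libraries, and was not tested.

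FOSL2, which encodes Fra-2, was the FOS gene with the highest FPKM in every library. It was at 31.0 and 43.7 FPKM in noDOX and 79.6 and 42.2 FPKM in DOX libraries, so DOX library 2 lay within the noDOX range and DOX library 1 alone lay above it. The log2 difference was 0.64 (SE 0.40; limma, adjusted p = 0.986), and it was 0.19 without DOX library 1 and 1.09 without DOX library 2. FOSL1, which encodes Fra-1 and responds to sustained ERK signalling, was at 17.7 and 16.5 FPKM in noDOX and 11.9 and 14.8 FPKM in DOX libraries. The groups did not overlap, but lay only 1.70 FPKM apart, with a log2 difference of -0.34 (SE 0.20; limma, adjusted p = 0.986).

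Within the FOS sum, FOSL2 held 56.5 and 66.2% in noDOX and 79.7 and 68.5% in DOX libraries, and FOSL1 held 32.3 and 25.0% against 11.9 and 24.0%. The gain of FOSL2 averaged 12.7 percentage points with all libraries and ran from 7.16 without DOX library 1 to 18.3 without DOX library 2. The sum of the FOS genes itself overlapped, at 54.8 and 66.0 FPKM in noDOX and 99.9 and 61.6 FPKM in DOX libraries. The JUN sum was 3.16 and 2.64 times the FOS sum in noDOX libraries, against 0.697 and 1.62 times in DOX libraries. In DOX library 1 alone the FOS genes together exceeded the JUN genes.

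ATF3, a stress-induced bZIP factor that represses as a homodimer and can join JUN, was at 10.9 and 7.40 FPKM in noDOX and 2.17 and 3.88 FPKM in DOX libraries. Both DOX values lay below both noDOX values, and the groups were 3.52 FPKM apart. Group averages were 9.13 ± 2.45 and 3.03 ± 1.21 FPKM (SD, n = 2 each), and the DOX mean was 33.1% of the noDOX mean. The log2 difference was -1.34 (SE 0.31; limma, unadjusted p = 0.00966, adjusted p = 0.532). ATF4, the integrated stress response factor that can switch on ATF3, was looked at after its values were seen and stood at 500 and 172 FPKM in noDOX and 191 and 382 FPKM in DOX libraries. ATF4 thus overlapped between the groups, and its part in the ATF3 difference was not tested.

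MAFK had lower and MAFF higher DOX values. MAFK was at 46.4 and 82.3 FPKM in noDOX and 12.4 and 23.3 FPKM in DOX libraries. The groups lay 23.1 FPKM apart, though the noDOX libraries themselves differed 1.78 times. Group averages were 64.3 ± 25.4 and 17.9 ± 7.65 FPKM (SD, n = 2 each), a DOX mean at 27.7% of the noDOX mean. The log2 difference of -1.80 (SE 0.44) was the lowest of the 9 genes tested and missed the threshold (limma, unadjusted p = 0.0118, adjusted p = 0.566). MAFK shares 809 exon bases, 18.1% of its exon bases in GENCODE release 29, with TMEM184A on the opposite strand. TMEM184A was at 15.6 and 27.0 FPKM in noDOX and 6.73 and 9.71 FPKM in DOX libraries, the same order of libraries as MAFK, and which gene the shared reads came from cannot be told apart without the strand setting.

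MAFF was at 10.7 FPKM in both noDOX libraries and at 17.0 and 15.0 FPKM in DOX libraries, and the groups did not overlap. Group averages were 10.7 ± 0.0306 and 16.0 ± 1.37 FPKM (SD, n = 2 each), with a log2 difference of 0.53 (SE 0.18; limma, unadjusted p = 0.0366, adjusted p = 0.742). MAFK stood at 4.31 and 7.69 times MAFF in noDOX libraries and at 0.733 and 1.55 times MAFF in DOX libraries. MAFG, the other small MAF gene, was at 49.5 and 41.5 FPKM in noDOX and 62.9 and 62.2 FPKM in DOX libraries, higher without overlap like MAFF, and it did not pass (limma, adjusted p = 0.946).

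The order of the levels differed between the groups. By mean FPKM in noDOX libraries the order was JUND, JUNB, MAFK, FOSL2, JUN, FOSL1, MAFF, ATF3, FOS and FOSB. Libraries of neighbours in that order overlapped for JUNB and MAFK and for MAFF and ATF3, and did not overlap for the other 7 pairs of neighbours. In DOX libraries the order was FOSL2, JUND, JUNB, MAFK, MAFF, FOSL1, JUN, FOS, ATF3 and FOSB. There the overlapping neighbours were FOSL2 and JUND, JUNB and MAFK, MAFK and MAFF, and FOSL1 and JUN. FOSL2 was above JUND in DOX library 1 only, so its place at the head of the DOX order rests on that library.

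The DOX libraries differed in how far they stood from the noDOX libraries. In all 9 tested genes DOX library 2 lay nearer the noDOX mean than DOX library 1 on the log2(FPKM + 1) scale, where the same held for 65.0% of all tested genes and for 68.9% of those without overlap. GATA4 was also lower in DOX library 2 (48.0 FPKM) than in DOX library 1 (75.0 FPKM). The sum of FPKM differed too, at 975728 in DOX library 1 and 1238483 in DOX library 2. The sums of noDOX libraries 1 and 2, at 1381822 and 989493, also differed. Small RNA genes held 34.8 and 41.9% of the sums in noDOX and 41.8 and 39.0% in DOX libraries. The median FPKM of the tested genes differed less than the sums, at 10.1 and 10.4 in noDOX and 10.3 and 9.94 in DOX libraries. The part of GATA4 or of the sums in the spread was not tested. JUNB had a log2 difference of -2.13 without DOX library 2 and -1.36 without DOX library 1. MAFK ran from -2.22 without DOX library 2 to -1.37 without DOX library 1, and JUN from -1.22 to -0.53 for the same libraries. Except for FOS, each of the 9 genes kept its direction with any 1 library left out.

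**Figure D2:**
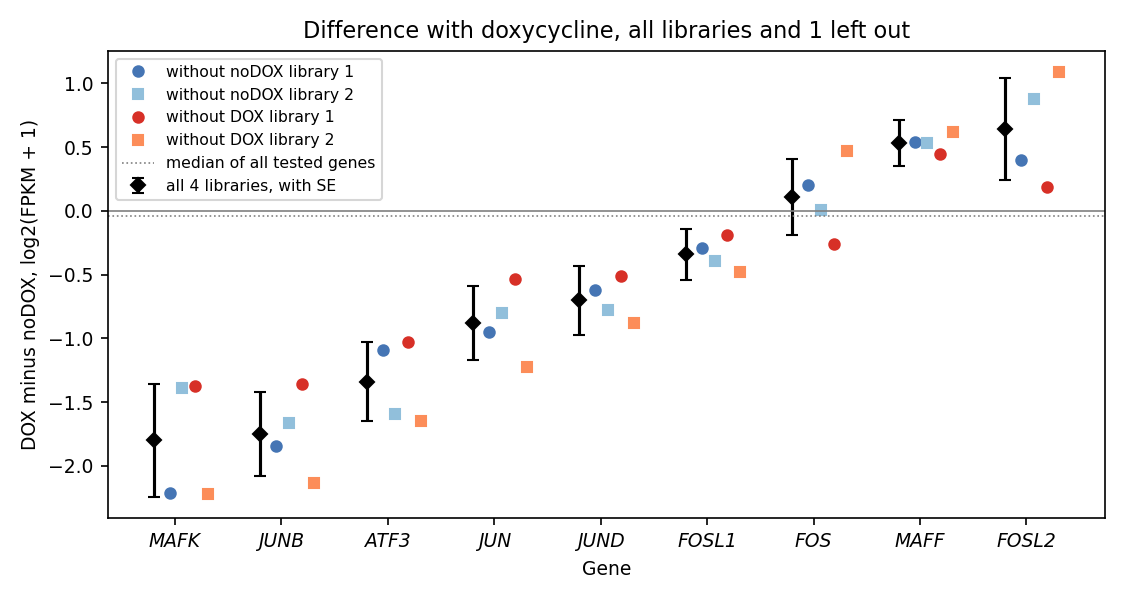
Difference between DOX and noDOX libraries on the log2(FPKM + 1) scale for the 9 tested genes, as a black diamond with its standard error for all 4 libraries and as coloured points with 1 library left out. JUNB, MAFK and ATF3 stay below -1 in every fit shown, and FOS crosses 0 without DOX library 1.

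Genes whose 4 values were most like those of JUNB and MAFK were found by the Euclidean distance between log2(FPKM + 1) values, each centred on its own mean, over 4 libraries and 12111 other genes outside the small RNA classes. Nearest to JUNB were TNFAIP2, a TNF-induced gene, at a distance of 0.172, the guanine nucleotide exchange factor VAV3 at 0.194, and IGFBP1, an IGF binding protein, at 0.195. TNFAIP2 was at 64.3 and 73.2 FPKM in noDOX and 17.2 and 28.6 FPKM in DOX libraries. IGFBP1 was at 3.66 and 3.44 FPKM in noDOX and only 0.0829 and 0.705 FPKM in DOX libraries. Its DOX mean was 11.1% of its noDOX mean, against 29.7% for JUNB. The pseudocount of 1 shrinks differences at such low values, so the nearness of IGFBP1 depends on it. VAV3 was low as well, at 4.89 and 5.52 FPKM in noDOX and 0.66 and 1.62 FPKM in DOX libraries. The same limit applies to it. Nearest to MAFK were the pseudogene ZDHHC8P1 at a distance of 0.119, SAMD11 at 0.249 and NRP2, which encodes neuropilin-2, at 0.376. With 0.99 and 2.18 FPKM in DOX libraries, NRP2 is also affected by the pseudocount. JUNB and MAFK were 0.452 apart, and JUNB ranked 5 by nearness to MAFK, while MAFK ranked 17 by nearness to JUNB. Both were picked for large differences, which had the same sign, so their nearness follows largely from that choice. ATF3, at 0.639, ranked 54 by nearness to JUNB, and JUN, at 0.875, ranked 137. SAMD11 shares exon bases with NOC2L on the opposite strand, and reads of a pseudogene such as ZDHHC8P1 can come from its parent gene.

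Other genes of the AP-1 network were read from lists. Of 25 other immediate early genes 20 were tested, and by limma 0 passed in either direction (adjusted p = 0.374 to 0.999). Without overlap 12 were lower and 4 higher, against 17.3% and 14.7% of all tested genes, and 10 lower and 3 higher ones had an unadjusted limma p under 0.05, against 3.52% and 2.82%. The median log2 difference was -0.86, against -0.04 over all tested genes, and it was -0.51 without DOX library 1. It was also smaller with no filter on low values, at -0.47. PTGS2, the inducible cyclooxygenase, was at 13.3 and 25.2 FPKM in noDOX and 4.14 and 3.89 FPKM in DOX libraries. IER3, a stress-induced survival gene, was at 172 and 152 FPKM against 30.1 and 61.6 FPKM, and CTGF, a matricellular growth factor, was at 11.0 FPKM in both noDOX libraries and 5.04 and 4.75 FPKM in DOX libraries. Antisense transcripts overlap CTGF and IER3 in GENCODE release 29. KLF4, a zinc finger factor, had higher DOX values, at 3.85 and 3.90 against 12.5 and 9.31 FPKM.

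Of 27 other bZIP partner genes 21 were tested, 0 passed (limma, adjusted p = 0.566 to 0.999), 2 were lower and 5 higher without overlap, and 2 lower ones had an unadjusted limma p under 0.05. Over all tested genes 17.3% were lower and 14.7% higher without overlap, and 3.52% were lower at that p. Of all 12504 tested genes 8506 overlapped between the groups, and of this list 14 of 21 did. The median log2 difference was 0.03, and it ran from -0.10 to 0.17 with 1 library left out. CEBPB, a C/EBP factor of inflammatory and senescence programmes, was at 119 and 117 FPKM in noDOX and 18.3 and 46.2 FPKM in DOX libraries. In GENCODE release 29 an antisense transcript overlaps exons of CEBPB, CREM and MAFG, SIRT7 on the same strand shares 105 exon bases with MAFG, and a transcript on the same strand shares 289 with ATF6B. CREM, a cAMP response factor, was at 31.8 and 29.2 FPKM against 13.1 and 18.5 FPKM. ATF6B, an unfolded protein response factor, was at 20.6 and 14.4 FPKM against 21.7 and 23.2 FPKM.

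Of 20 kinases and SRF partners that act upstream of AP-1, 19 were tested, with log2 differences from -0.22 to 0.59 and a median of 0.04. By limma 0 passed (adjusted p = 0.957 to 0.999) and 0 had an unadjusted p under 0.05, while 3 were lower and 5 higher without overlap, against 17.3% and 14.7% of all tested genes. RPS6KA3, an ERK-activated kinase, was at 19.0 and 24.0 FPKM in noDOX and 41.4 and 25.6 FPKM in DOX libraries. MAPK9, which encodes the JUN kinase JNK2, was at 11.8 and 13.4 against 15.9 and 15.4 FPKM. GSK3B was at 4.29 and 5.36 against 7.45 and 5.59 FPKM. Genes were named by smallest p among those without overlap, and the 3 lower ones, with larger p, are therefore not named.

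Of 35 known AP-1 target genes 23 were tested, 0 passed (limma, adjusted p = 0.289 to 0.999), and 5 were lower and 4 higher without overlap, with 4 lower and 1 higher at an unadjusted limma p under 0.05. Over all tested genes the shares were 17.3% and 14.7% without overlap and 3.52% and 2.82% at that p. The median log2 difference was 0.15 and its sign depended on the libraries, at -0.13 without noDOX library 1, and on the filter, at -0.03 with none. IL8, a neutrophil chemokine, was at 14.0 and 22.4 FPKM in noDOX and 3.51 and 2.06 FPKM in DOX libraries. LIF, an IL6-family cytokine, was at 30.7 and 35.5 against 5.38 and 13.5 FPKM, and EREG, an EGF receptor ligand, was at 7.63 and 8.55 against 2.91 and 4.32 FPKM. VEGFA had higher DOX values, at 16.8 and 16.4 against 42.5 and 31.3 FPKM. Antisense transcripts overlap exons of LIF and VEGFA in GENCODE release 29.

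**Figure D3:**
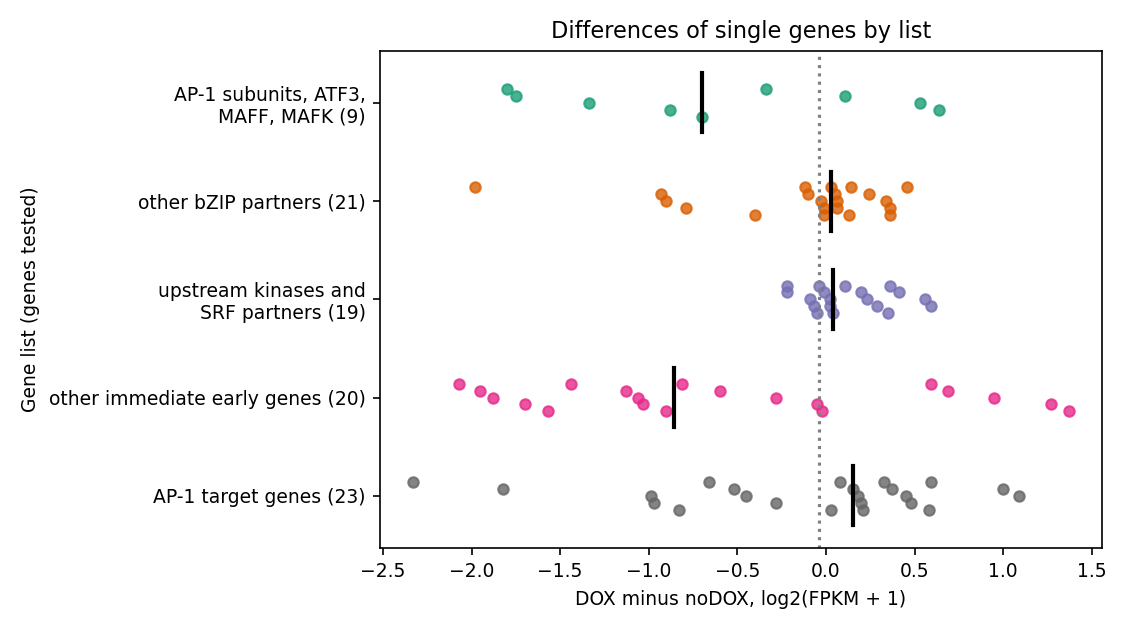
Difference between DOX and noDOX libraries on the log2(FPKM + 1) scale for each tested gene of 5 lists, with a black bar at the list's median and a dotted line at the median of all tested genes (-0.04). The medians are -0.70 for the AP-1 genes with ATF3, MAFF and MAFK and -0.86 for the other immediate early genes, and 0.03, 0.04 and 0.15 for partners, upstream genes and targets.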

How the data were processed

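The submitters' processing notes name the hg19 build, Bowtie and TopHat2 2.0.10, and Cuffdiff and Cufflinks 2.2.1. The authors deposited 1 table of FPKM with 1 column per library. The sources used here do not state its annotation, strand setting or library scaling. Genes whose mean FPKM reached 1 were tested on log2(FPKM + 1), where the pseudocount of 1 understates changes of low genes, with limma 3.58.1 in R 4.3.3, 2 group means, a mean-variance trend, two-sided p and Benjamini-Hochberg adjustment over all 12504 tested genes at 0.05. There were 2 residual degrees of freedom. The fit was run on simulated data with normal noise and known differences, as a check of the code. That run does not measure how often real differences of the members' size would pass. The genes, the lists and the tests were chosen with earlier results of these data known. All 10 members are named, plus up to 4 genes per list with the smallest p and no overlap, and the 3 genes nearest to each of the 2 members with the largest absolute difference. ATF4 was added after its values were seen. A gene that the rule names is not reported here. Alternatives covered the pseudocount, filter, scaling, moderation, small RNA genes, a replicate block and each library left out. Exon overlaps came from GENCODE release 29, matched by symbol.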

Additional observations from a re-analysis of the deposited data

How the results depend on the processing

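Of the 126 recomputed log2 differences of the 9 tested genes under 14 alternatives, 125 kept their direction. The filter, moderation, small RNA and replicate block alternatives cannot change a gene's log2 difference in this balanced design. Their agreement was therefore fixed in advance, and only the pseudocount, scaling and left-out libraries could move the values. With 1 library left out FOS ran from -0.26 (without DOX library 1) to 0.47, and FOSB, which was not tested, from -0.45 to 0.02 (without noDOX library 2). By limma 0 of the 9 genes passed under any alternative, with adjusted p from 0.123 to 1.0. Over all genes, 11 passed in all 4 libraries, 1 with no filter, 1 without small RNA genes, and 51 to 62 with 1 library left out, where the lone library is assumed to vary like the others. The replicate numbers are not known to pair libraries, and a replicate block gave 65 calls. Deviations of same-numbered libraries correlated at -0.352 over 12504 genes and at -0.758 over 12112 genes without small RNA genes, and a crossed replicate block, added after seeing the data, gave 7 calls. The JUNB share difference of -15.0 percentage points ran from -17.3 to -12.7 with 1 library left out, and that of MAFK, -33.3, from -42.5 to -24.1. Depth is unknown, so low values such as those of FOSB carry no stated counting error.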
